A study of Homo sapiens with 9 samples.

Results

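The 60 genes described here lie on the short arm of human chromosome 12 (12p) and were selected for a shift of their signal in the breast cell line MIII. They are 60 of the 279 genes of 12p that had a probe set, and of 19775 such genes in all. Each gene was read from the probe set annotated to it alone with the highest mean over the 9 arrays. The selection rested on the level in MIII beside MII and MIV, so the differences of MIII from both other lines are given as a description, and no test is read from them. A total of 57 members exceeded the pooled median signal of 69.3 on at least 3 arrays and entered the fit, while 3 did not. NINJ2, a cell adhesion protein, averaged 11.7 in MII, 24.9 in MIII and 7.4 in MIV. IFFO1, an intermediate filament-like protein, averaged 31.0 in MII, 47.9 in MIII and 29.3 in MIV. BCAT1, a branched-chain amino acid transaminase, averaged 34.9 in MII, 17.0 in MIII and 21.8 in MIV. These levels are too dim to compare between lines.

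Total RNA of 3 lines of the MCF-10A series was hybridised to 1-colour Affymetrix arrays, with 3 arrays per line. MII is MCF-10AT1Kcl2, labelled as carcinoma in situ, MIII is MCF-10A1h, labelled as carcinoma, and MIV is MCF-10A1a, labelled as metastatic carcinoma. MCF-10A is a breast epithelial line, and its derivatives of this series carry an activated HRAS. All 3 lines grew untreated in the same medium, DMEM/F12 with horse serum, antibiotics, insulin, cholera toxin, epidermal growth factor and hydroxycortisone. Each stage is represented by 1 cell line, so stage and line cannot be told apart. The arrays of a line are labelled biological replicates, but separate cultures are not stated, so p-values cover no more than the array-to-array spread, which may be technical.

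A chromosome arm carries genes of unrelated function that share only their position. When a cell gains or loses copies of an arm, many of its genes change in expression together and by a modest amount, while genes under strong local control can depart from their neighbours. Gains of 12p are best known from germ cell tumours, and copy number changes of whole arms are common in breast cancer lines. Copy number was not measured in these samples.

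The arrays had median signals of 69.0 to 71.7 (MII), 72.1 to 74.9 (MIII) and 64.7 to 65.2 (MIV). All had been brought to a common trimmed mean before deposit, so each value is relative to the rest of its array. Over all 54675 probe sets, the lowest correlation within a line was 0.974 and the highest between lines was 0.961. The bioB hybridisation controls read 2128 to 4082 on MIV replicate 3, against 652 to 1880 on the other 8 arrays. Without that array the median of the members was -0.55 for MIV minus MIII and -0.03 for MIV minus MII, against -0.55 and -0.02 with it. Precision is limited by the number of arrays, and a log2 change had a standard error of 0.11 in the median gene.

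Most of the member genes were higher in MIII than in both other lines, while 5 were lower in MIII than in MII. Differences are given on the scale of log2(signal + 18.3), which understates changes of dim genes. Signals of different probe sets do not compare transcript levels between genes, and bright or dim refers only to the probe set. For MIII minus MII the median of the 57 members was 0.55, with an interquartile range of 0.25 to 0.81, against -0.02 for all 12594 genes tested. On the linear scale, the median ratio of mean signals of MIII over MII was 1.46. The change was positive for 50 members and lay between 0.3 and 0.9 for 29 of them. At a limma adjusted p under 0.05, 44 members were higher in MIII than in MII, or 77.2%, against 22.9% of all genes tested. Another 5 members were lower, or 8.77%, against 24.3% of all genes, and 8 were called in neither direction. Since the members were chosen by this shift, these shares describe the choice.

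For MIV minus MIII the median of the members was -0.55, against -0.01 for all genes tested. Here 42 members were lower in MIV, or 73.7%, against 26.6% of all genes, and 3 were higher, or 5.26%, against 25.3%. This comparison shares its MIII arrays with the first, so it cannot count as separate evidence of the shift. At least a 2-fold change was called for 13 members in MIII against MII, 10 of them higher and 3 lower, against 11.7% of all genes in either direction. In MIV against MIII, 9 members were called at least 2-fold lower and 0 higher, against 12.7% of all genes in either direction.

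The 3 MIII arrays all lay above the 6 arrays of MII and MIV for 39 members, or 68.4%, against 18% of all genes tested. They all lay below those arrays for 2 members, CD9 and GPRC5A, or 3.51%, against 17.2% of all genes.

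**Figure D1:**
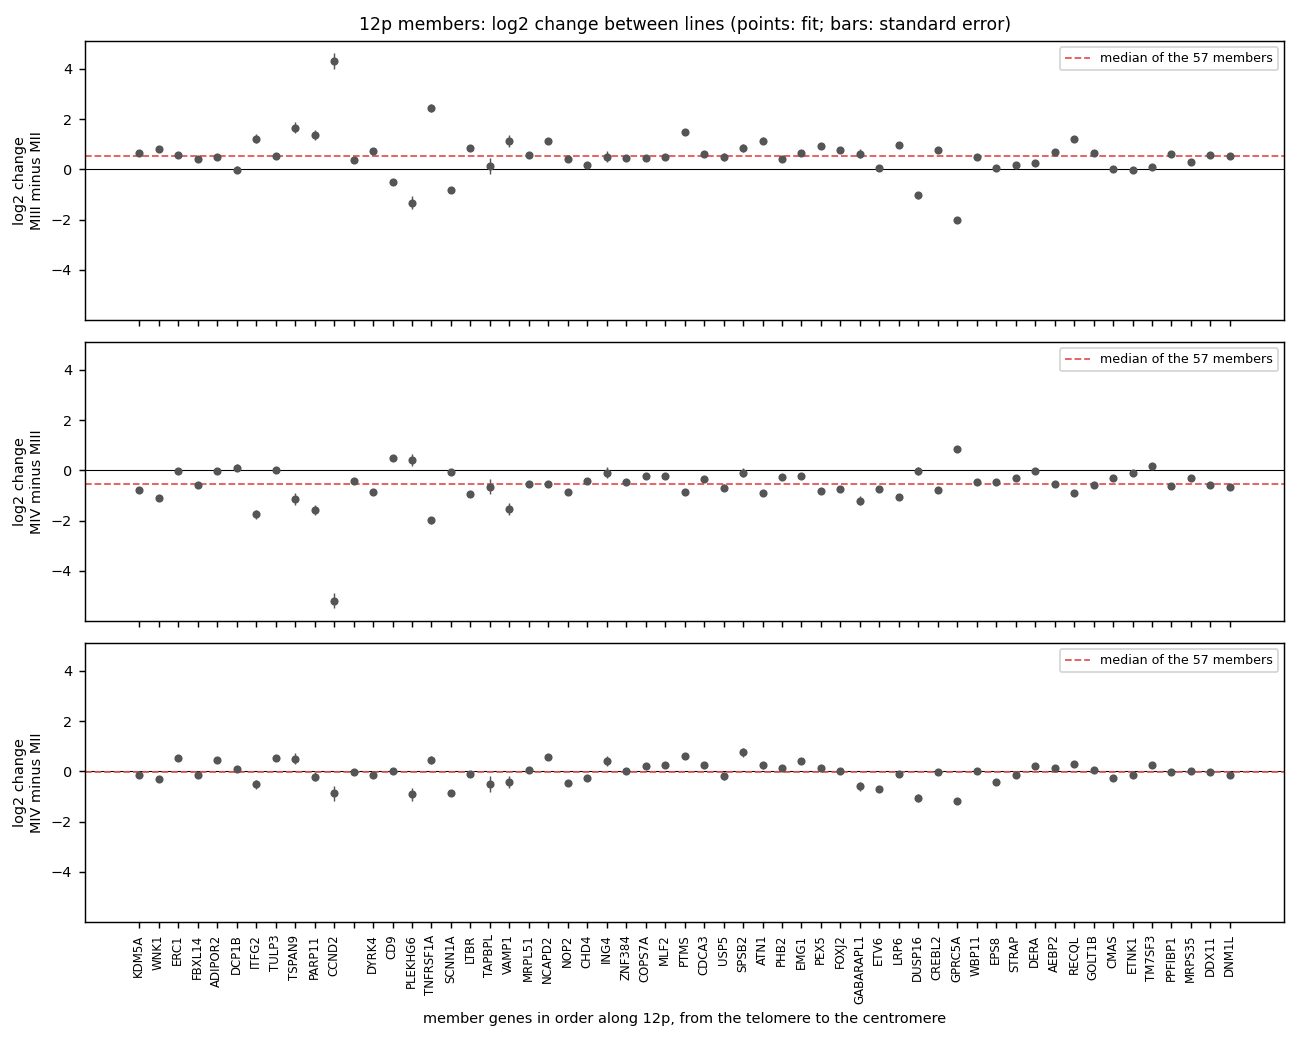
Log2 change of each of the 57 members between lines, from MIII minus MII (top) to MIV minus MIII (middle) and MIV minus MII (bottom), in order along 12p; points are fitted changes, bars are standard errors and 1 point is left unnamed. The dashed lines mark medians of 0.55, -0.55 and -0.02.

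MIV against MII is the comparison that leaves out the MIII arrays, although both lines also enter the comparisons above. The members did not lean to either side in it: 15 were higher in MIV, or 26.3%, against 20% of all genes tested, and 14 were lower, or 24.6%, against 22.2%. Both shares lie near those of all genes, so they are no result about the members. The median of MIV minus MII was -0.02 for the members and -0.03 for all genes tested. At a limma adjusted p under 0.05, the largest rise called among the members was that of SPSB2, a substrate adaptor of a ubiquitin ligase, with 0.75 ± 0.17 (SE, adjusted p = 0.00264). The largest fall was that of GPRC5A, a retinoic acid-induced orphan receptor, with -1.17 ± 0.06 (SE, limma adjusted p = 2.86e-09).

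The shift was the same size on each MIII array. Relative to the mean of MII for each gene, the median member stood at 0.01, -0.03 and 0.02 on the MII arrays, at 0.56 on each of the 3 MIII arrays and at -0.03, 0 and 0.02 on the MIV arrays. No single array carried the difference, and the MIII values did not overlap those of the other lines. The share of members above the MII mean was 84.2%, 86% and 89.5% on the MIII arrays and 47.4%, 50.9% and 50.9% on the MIV arrays.

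**Figure D2:**
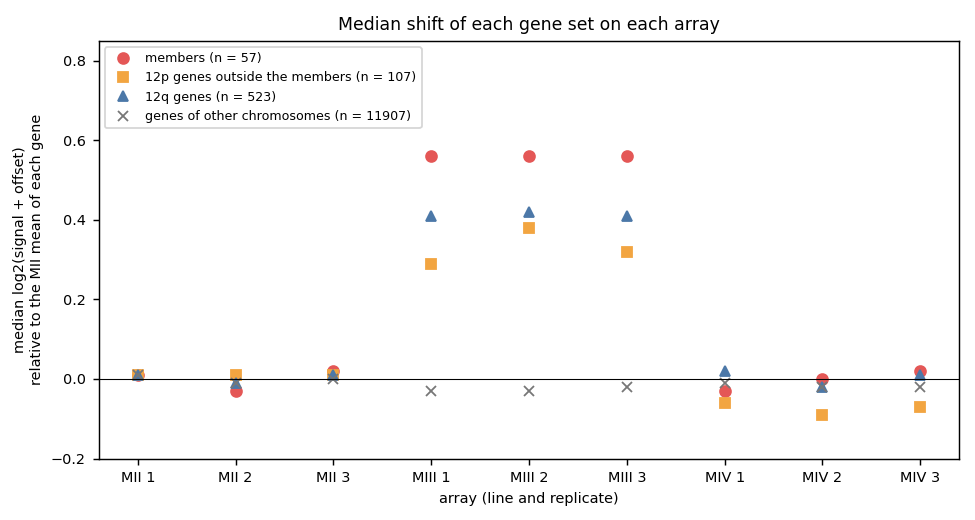
Median log2(signal + offset) of each gene set on each of the 9 arrays, relative to the mean of MII for each gene. The members (circles) stand at 0.56 on all 3 MIII arrays, 12q genes (triangles) at 0.41 to 0.42 and genes of other chromosomes (crosses) at -0.03 to -0.02.

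The promoters of a few members are shown with the motifs found in them, since they stand for members that moved together and for members that moved apart. RefSeq (GRCh38.p14) promoters were matched by symbol for 48 of the 60 members. PHB2 and EMG1 are neighbours that start back to back, and the 159 bases between their starts, chr12:6970754-6970912 on the plus strand, lie before both genes. TNFRSF1A (chr12:6342077-6342326, minus strand) and CD9 (chr12:6199696-6199945, plus strand) are given as the 250 bases before their start, as members that were higher and lower in MIII. Each sequence is written from 5′ to 3′ in the direction of the gene. Capitals mark matches on either strand to 4 short promoter motifs. The first was the GC box, spelled GGGCGG. The second was the CCAAT box, named by its letters. The third was the TATA box, spelled TATAAA. The last was an ETS-type motif, spelled CCGGAAG.
EMG1: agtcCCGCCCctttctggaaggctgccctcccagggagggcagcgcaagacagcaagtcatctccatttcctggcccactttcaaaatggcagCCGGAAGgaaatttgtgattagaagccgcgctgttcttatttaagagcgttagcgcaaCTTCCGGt
TNFRSF1A: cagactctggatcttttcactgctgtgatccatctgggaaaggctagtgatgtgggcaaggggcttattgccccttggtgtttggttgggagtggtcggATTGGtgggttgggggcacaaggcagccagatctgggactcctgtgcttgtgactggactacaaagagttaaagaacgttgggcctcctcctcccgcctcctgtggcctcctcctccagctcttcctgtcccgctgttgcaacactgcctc
CD9: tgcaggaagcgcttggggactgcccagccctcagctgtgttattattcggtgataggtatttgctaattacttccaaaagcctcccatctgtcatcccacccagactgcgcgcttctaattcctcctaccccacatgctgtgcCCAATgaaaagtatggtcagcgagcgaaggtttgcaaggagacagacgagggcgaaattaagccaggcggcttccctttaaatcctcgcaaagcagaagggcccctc

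The region shared by PHB2 and EMG1 held 1 GC box and 2 ETS-type motifs, with a GC content of 54.1%. The TNFRSF1A and CD9 promoters each held 1 CCAAT box and none of the other motifs. Over the 250 bases before the start, a GC box was present in 68.8% of the 48 member promoters and in 65.9% of the 10234 promoters of genes tested. A CCAAT box was present in 35.4% and 35.1%, a TATA box in 2.1% and 5.8%, and an ETS-type motif in 27.1% and 15.8%. Matches are descriptions only, and the shares were not tested against each other.

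The members are grouped below by function. Counts per group in MIII against MII come from the comparison that chose the members, in which 77.2% of the members and 22.9% of all genes were called higher, so they describe the choice and the groups were not tested against each other. Of the 6 cell cycle and DNA repair genes, 6 were called higher, beside those shares, with a median MIII minus MII of 0.88. CCND2 encodes cyclin D2, which pairs with CDK4 and CDK6 in G1. CCND2 read 51.9, 55.7 and 32.8 in MII, 1181, 1351 and 1235.5 in MIII and 3.0, 18.7 and 36.2 in MIV. Every MIII array lay far above every other array, and all MII and MIV values lay under the pooled median signal. CCND2 passed the filter only through MIII, so the size of its change depends on the offset. MIII minus MII was 4.31 with the offset of 18.3, 4.75 with an offset of 1 and 3.52 with the pooled median as offset. MIV minus MIII was -5.18, -6.45 and -3.92 under these offsets. A second, dim probe set that passed the filter gave 0.62 for MIII minus MII.

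CDCA3, a mitotic entry factor, was a bright member of the same group. CDCA3 read 3270.1, 3079.6 and 3228 in MII, 4783.5, 4920.0 and 5038 in MIII and 3784, 3715 and 4082 in MIV. The 3 lines did not overlap, with MIII highest and MIV between the others. MIV minus MII was 0.27 ± 0.05 (SE, limma adjusted p = 0.00102). Other members of the group were the condensin subunit NCAPD2 (MIII minus MII 1.14), the DNA helicase RECQL (1.22) and the helicase DDX11 (0.56). DDX11 has near-identical copies elsewhere in the genome that may share its probes, so its value is uncertain. RECQL and NCAPD2 were also higher in MIV than in MII, by 0.30 ± 0.06 and 0.59 ± 0.07 (SE).

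Of the 9 chromatin and transcription genes tested, 7 were called higher in MIII than in MII and 0 lower, with a median of 0.64. ATN1 encodes atrophin-1, a transcriptional corepressor. ATN1 read 875.0, 813.5 and 879.9 in MII, 1462, 2342 and 2042 in MIII and 968, 988 and 1093 in MIV. The MIII arrays lay above all others but were spread widely. CHD4, the ATPase of the NuRD remodelling complex, had the brightest signal of this group. CHD4 read 2244, 2001 and 2075 in MII, 2343, 2462 and 2384 in MIII and 1730.5, 1822 and 1753 in MIV. The lines did not overlap, but the MIII minus MII change of 0.19 ± 0.06 (SE) was small. MIV was lower than MII, at -0.25 ± 0.06 (SE, limma adjusted p = 0.00448).

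The other chromatin members called higher in MIII were the H3K4 demethylase KDM5A (0.64), the forkhead factor FOXJ2 (0.75), the bZIP protein CREBL2 (0.77), the PRC2 cofactor AEBP2 (0.68) and the zinc finger factor ZNF384 (0.47). The histone reader ING4 (0.50 ± 0.21, SE) and the ETS-family repressor ETV6 (0.04 ± 0.09, SE) were not called. ETV6 fell in MIV against either of the others, with a MIV minus MII of -0.69 ± 0.09 (SE, limma adjusted p = 3.01e-05).

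The cell surface group was divided. Of its 9 members tested, 5 were higher in MIII than in MII, 3 were lower and 1 was not called. TNFRSF1A encodes TNF receptor 1, whose promoter is printed above. TNFRSF1A read 1517, 1121 and 1127 in MII, 8959, 5786 and 6276 in MIII and 1882, 1639.9 and 1629 in MIV. All MIII arrays lay more than 2-fold above every other array, and MIII replicate 1 was the highest. The MIII minus MII change was 2.45 ± 0.15 (SE), and MIV was above MII by 0.46 ± 0.15 (SE, limma adjusted p = 0.0215).

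CD9, a tetraspanin of epithelial membranes, had the brightest signal of this group. CD9 read 14733, 14689 and 15313 in MII, 10802, 10563.5 and 10403 in MIII and 15068.5, 14580.3 and 15098 in MIV. It ran opposite to most members: all MIII arrays lay below all others, while MII and MIV overlapped. MIV minus MII was 0.00 ± 0.04 (SE, limma adjusted p = 0.995).

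GPRC5A was the other member below all other arrays in MIII, averaging 18358 ± 835 in MII, 4558 ± 408 in MIII and 8134 ± 61.6 in MIV (each over n = 3 arrays, with SD). SCNN1A, the alpha subunit of the epithelial sodium channel, was lower in MIII than in MII (-0.81 ± 0.05, SE). Its MIV minus MIII was -0.06 ± 0.05 (SE) in the main probe set, while dimmer probe sets gave 0.58 and 0.75. LTBR, the lymphotoxin beta receptor (0.86), the Wnt co-receptor LRP6 (0.96), the tetraspanin TSPAN9 (1.66) and the adiponectin receptor ADIPOR2 (0.48) were higher in MIII than in MII. The transmembrane protein TM7SF3 was not called in its main probe set (0.09 ± 0.06, SE), while its other probe sets gave 0.82 and 0.55.

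The kinase, phosphatase and scaffold genes had 5 members higher in MIII than in MII, 2 lower and 1 not called, of 8 tested. PLEKHG6 encodes a guanine nucleotide exchange factor. PLEKHG6 read 227.9, 181.1 and 179.7 in MII, 69.7, 54.5 and 79.3 in MIII and 92.3, 131.1 and 68.5 in MIV. Both MIII and MIV lay below MII, and their values overlapped each other near the pooled median signal. EPS8, an actin-regulating substrate of the EGF receptor, was the brightest of the group. EPS8 read 5988, 6144 and 5988 in MII, 6018.5, 6314 and 6269 in MIII and 4492, 4592 and 4408 in MIV. MII and MIII overlapped and MIV lay below both, with MIV minus MII at -0.42 ± 0.05 (SE, limma adjusted p = 4.84e-06).

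Higher members of this group were the kinase WNK1 (0.81), the scaffold ERC1 (0.56), ITFG2, a subunit of the KICSTOR complex (1.22), the kinase DYRK4 (0.72) and the liprin PPFIBP1 (0.61). Further probe sets of ITFG2 gave 0.35, 0.86 and 0.15. The MAP kinase phosphatase DUSP16 was lower in MIII than in MII (-1.04 ± 0.15, SE) and lower in MIV than in MII (-1.05 ± 0.15, SE). ERC1 was higher in both MIII and MIV than in MII, with a MIV minus MII of 0.53 ± 0.07 (SE, limma adjusted p = 3.68e-05).

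Of the 5 ubiquitin and ADP-ribose genes, 5 were called higher in MIII than in MII, beside 77.2% of the members and 22.9% of all genes, with a median of 0.50. PARP11 encodes a mono-ADP-ribosyltransferase. PARP11 read 82.2, 86.4 and 92.3 in MII, 253.6, 246.7 and 260.2 in MIII and 58.7, 81.1 and 79.6 in MIV. The MIII arrays stood apart from the other 6, and every MIV value lay under the lowest of MII. COPS7A, a COP9 signalosome subunit, read 1728, 1796 and 1758 in MII, 2273, 2441.5 and 2461 in MIII and 2003, 1977 and 2128 in MIV. The 3 lines did not overlap, with MIV between MII and MIII. The deubiquitinase USP5 (0.50), the F-box protein FBXL14 (0.43) and SPSB2 (0.84) completed the group.

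Of the 7 RNA and ribosome genes, 6 were higher in MIII than in MII and 0 lower, with a median of 0.40. STRAP, an RNA-binding partner of the SMN complex, had the brightest signal. STRAP read 15396, 16276 and 16895 in MII, 17535, 18368 and 19320 in MIII and 14767, 14245 and 15164.0 in MIV. The lines did not overlap, and the MIII minus MII change was 0.19 ± 0.05 (SE). EMG1 makes a ribosomal RNA methyltransferase and starts back to back with PHB2. EMG1 read 5553, 5419 and 5607 in MII, 8371, 8867 and 8372 in MIII and 7584, 6941 and 7486 in MIV. MIII lay highest and MIV between the others, with MIV minus MII at 0.41 ± 0.05 (SE, limma adjusted p = 1.61e-05).

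The other RNA members were the rRNA methyltransferase NOP2 (0.40), the splicing factor WBP11 (0.49) and the mitochondrial ribosomal proteins MRPL51 (0.59) and MRPS35 (0.30), all higher in MIII than in MII. The decapping factor DCP1B was not called (-0.01 ± 0.13, SE).

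Of the 8 organelle and membrane traffic genes, 7 were higher in MIII, with a median of 0.58. PHB2 encodes prohibitin 2, a scaffold of the inner mitochondrial membrane. PHB2 read 18642, 18072.5 and 19468 in MII, 25926, 25254 and 24092 in MIII and 21066, 20365 and 20703 in MIV. The 3 lines did not overlap, and the order was the same as for EMG1. VAMP1, a SNARE of vesicle fusion, read 151, 77.3 and 98.6 in MII, 259, 304.5 and 206 in MIII and 78.9, 61.8 and 85.8 in MIV. The MIII arrays lay above the rest, and MII and MIV overlapped.

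Other members of this group were the peroxisomal import receptor PEX5 (0.92), the mitochondrial fission GTPase DNM1L (0.53), the autophagy protein GABARAPL1 (0.62), the Golgi protein GOLT1B (0.63) and the ciliary trafficking protein TULP3 (0.55), all higher in MIII than in MII. TAPBPL, a tapasin relative of antigen presentation, was not called in its main probe set (0.14 ± 0.31, SE), while a second probe set gave 1.38.

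The remaining groups were small. MLF2, a nuclear protein, read 5421, 5526 and 5518 in MII, 7683, 7837 and 7398 in MIII and 7076, 6215.5 and 6493 in MIV. PTMS, parathymosin, an acidic nuclear protein, read 482, 552 and 627 in MII, 1583, 1579 and 1536 in MIII and 906, 836 and 785 in MIV. MIII was highest and did not overlap the others in either gene. Among the metabolic genes, DERA, the deoxyribose-phosphate aldolase, read 3720.1, 3617.5 and 3752 in MII, 4482.5, 4203 and 4493 in MIII and 4185, 4464 and 4159 in MIV. MIII and MIV overlapped, and both lay above MII. CMAS (0.02 ± 0.07, SE), a sialic acid enzyme, and ETNK1 (-0.03 ± 0.07, SE), an ethanolamine kinase, were not called.

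**Figure D3:**
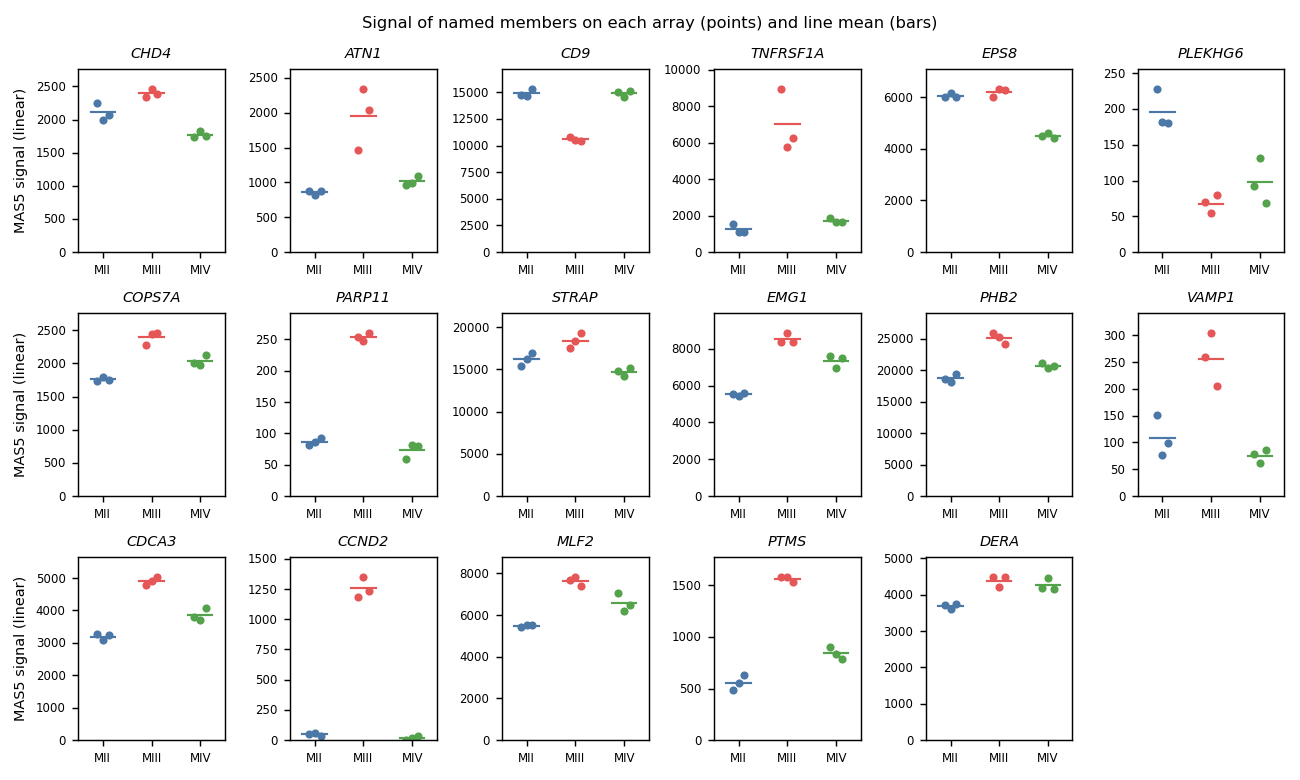
MAS5 signal on a linear axis of the 17 members whose values are given per array, with 1 point per array and a bar at the mean of each line. MIII is highest on all 3 arrays in 13 of them, while CD9 and PLEKHG6 are lower in MIII than in MII.

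Further probe sets of the members mostly had the same sign as the main one. They read the same chosen genes on the same arrays, so they are not separate evidence of the shift. The members had 151 probe sets, and 67 further ones in 32 members exceeded the filter. In MIII minus MII, 62 of the 67 had the same sign as the main probe set and 5 had the opposite sign, with a median of 0.55. The disagreements named here were chosen after their values were seen. ETNK1 had a main value of -0.03 and further values of 1.08, 0.64, 0.46, -0.05 and -0.19, and LTBR, at 0.86 in its main probe set, had a dim probe set at -0.54. There were 4 pairs of members that start back to back within 1000 bases. Their directions were close to fixed by the choice of members, so only their values are given. For MIII minus MII, PHB2 and EMG1 changed by 0.42 and 0.63, MRPL51 and NCAPD2 by 0.59 and 1.14, RECQL and GOLT1B by 1.22 and 0.63, and CDCA3 and USP5 by 0.62 and 0.50.

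The name of the set, genes of 12p, covers only a portion of the pattern. The 107 genes of 12p outside the members that passed the filter had a median MIII minus MII of 0.32, with 52 higher and 16 lower. Over all 219 such genes, with no filter, the median was 0.16, with 49 higher and 15 lower. The 523 genes of 12q had a median of 0.41, with 318 higher, or 60.8%, and 43 lower, or 8.22%. Genes of the other chromosomes had a median of -0.03, with 20.7% higher and 25.2% lower. For MIV minus MIII the medians were -0.43 on 12p outside the members, or -0.21 with no filter, and -0.40 on 12q. For MIV minus MII they were -0.08 and 0. The shift thus covered both arms, and whether 12p and 12q differed was not tested.

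Along the chromosome, in bins of 10 Mb, the median MIII minus MII was positive in all 14 bins and ran from 0.19 to 0.61. The first 10 Mb of 12p held 80 genes tested, 37 of them members, at a median of 0.49. The lowest bin was 10 to 20 Mb, with 41 genes at 0.19. The highest was 80 to 90 Mb on 12q, with 14 genes at 0.61, which is few. Positions are those of GRCh38.p14, and 12p was split from 12q at the widest gap between genes, from 34250265 to 37575343.

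**Figure D4:**
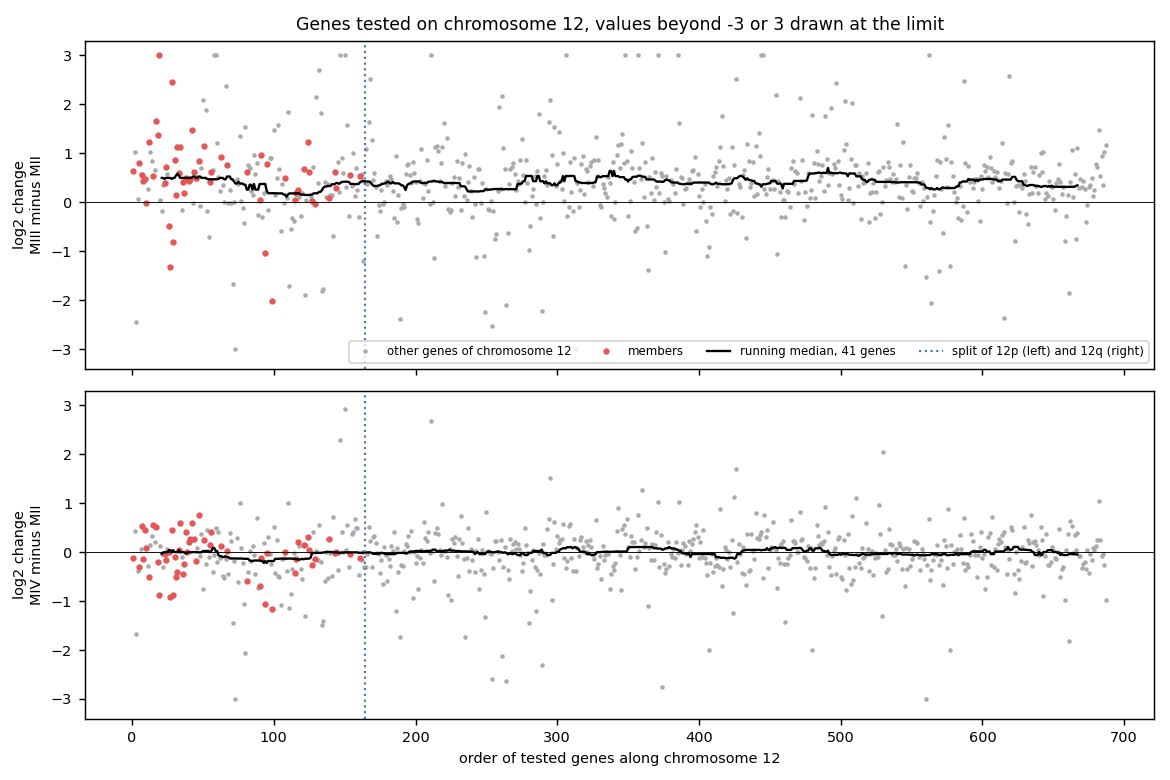
Log2 change of every gene tested on chromosome 12 in order, for MIII minus MII (top) and MIV minus MII (bottom), with a running median of 41 genes; values beyond 3 or -3 are drawn at the limit. The running median stays above 0 across both arms for MIII minus MII and near 0 for MIV minus MII.

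Among 41 chromosome arms, 12p and 12q had the highest median MIII minus MII, at 0.43 and 0.41, where 12p includes the members. The next was 3q at 0.33 and the lowest was 16q at -0.20. In MIV minus MIII, 12p (-0.46) had the lowest median, followed by 19q (-0.41) and 12q (-0.40). In MIV minus MII, 12p (-0.03) and 12q (0) lay near 0, while 3q stood at 0.41 and 19q at -0.42. With all genes kept in place of the filtered ones, 12q came first in MIII minus MII at 0.32 and 12p second at 0.24.

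**Figure D5:**
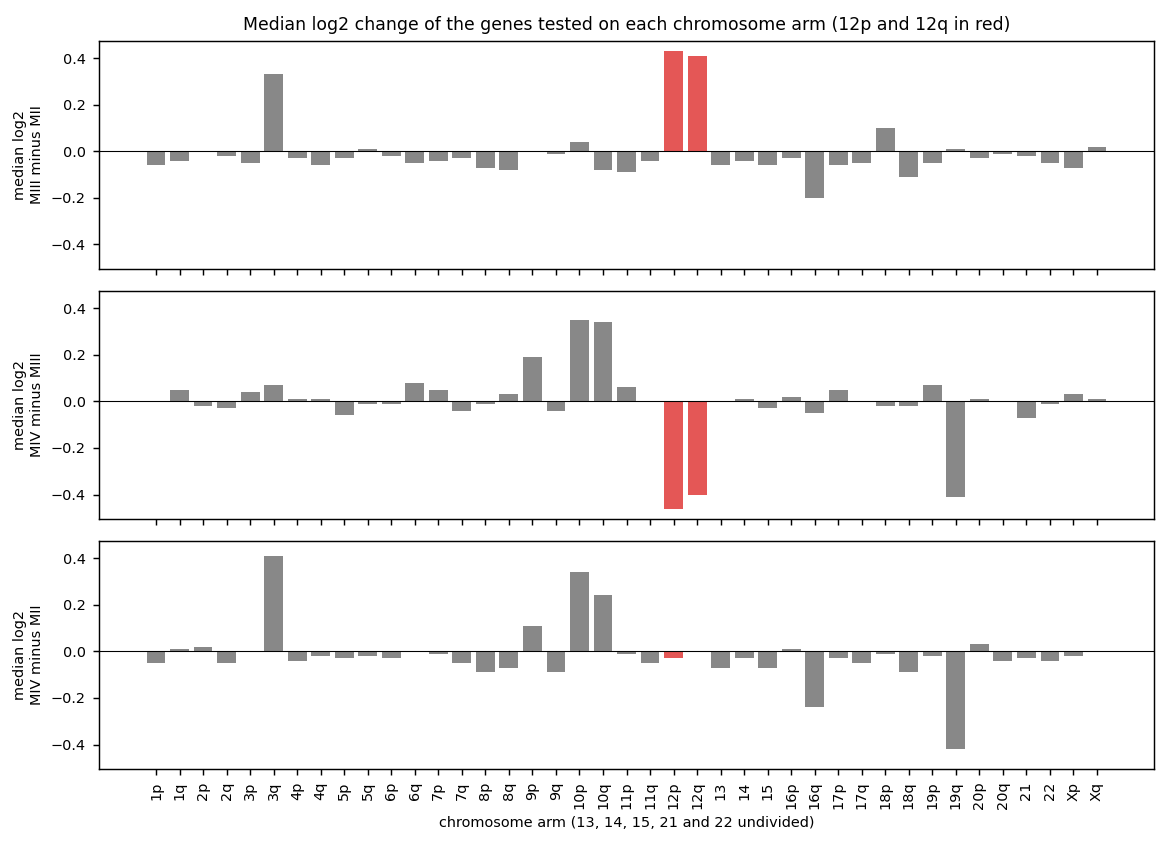
Median log2 change of the genes tested on each of 41 chromosome arms, for MIII minus MII (top), MIV minus MIII (middle) and MIV minus MII (bottom), with 12p and 12q in red. Both arms of chromosome 12 lie highest in MIII minus MII, near the lowest in MIV minus MIII and near 0 in MIV minus MII.

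Genes of 12p outside the members showed the same lean with wider exceptions. They are what the choice of members left, so how they differ from the members depends on that choice. Of a list of 34 such genes, chosen with earlier results known, 31 were tested. In MIII against MII, 18 were higher and 4 lower, with a median of 0.37, beside 22.9% and 24.3% of all genes. The cyclin-dependent kinase inhibitor CDKN1B (0.91) and the mitotic transcription factor FOXM1 (1.03) were higher, as was the glycolytic enzyme TPI1 (0.47). GAPDH (-0.15 ± 0.07, SE), LDHB (0.11 ± 0.05, SE) and MGST1 (0.10 ± 0.05, SE), were not called. In MIV against MIII, 2 genes of the list were higher and 20 lower, with a median of -0.53, beside 25.3% and 26.6% of all genes. C1S, C1R, ENO2 and SLC2A3 of this list lay under the pooled median on every MII and MIV array. They passed the filter only through MIII, so their calls in both comparisons with MIII were close to fixed by it. For MIV against MII, 5 were higher and 10 lower, with a median of -0.06, beside 20% and 22.2% of all genes. These counts were not tested against the shares of all genes.

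The 5 largest rises in MIII among 12p genes outside the members were those of C1S (4.91) and C1R (3.53), proteases of the complement system, TMTC1 (4.63), FAR2, a fatty acyl reductase (3.59), and RASSF8-AS1 (2.69). RASSF8-AS1 is an antisense RNA. C1S, C1R, FAR2 and RASSF8-AS1 averaged under the pooled median of 69.3 in MII, so they passed the filter through other lines and the sizes and order of these rises depend on the offset. With an offset of 1 the rises were 6.73 for C1S, 4.19 for C1R, 4.82 for TMTC1, 4.66 for FAR2 and 4.13 for RASSF8-AS1. With the pooled median as offset they were 3.38, 2.60, 4.18, 2.43 and 1.54 in the same sequence of genes. The 5 largest falls were those of A2ML1, a protease inhibitor of stratified epithelium (-5.75), B4GALNT3 (-2.45), the transporter SLCO1B3 (-1.89), the circadian repressor BHLHE41 (-1.80) and sarcospan, SSPN (-1.78). A2ML1, SLCO1B3 and SSPN averaged under the pooled median in MIII, so the sizes of their falls depend on the offset as well. C1S averaged 6.43 ± 3.41 in MII, 718.2 ± 17.6 in MIII and 5.37 ± 3.05 in MIV (each over n = 3 arrays, with SD). A2ML1 averaged 1733 ± 216 in MII, 15.9 ± 12.7 in MIII and 91.5 ± 0.643 in MIV (each over n = 3 arrays, with SD).

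Markers of cell type moved in MIII alongside these genes. Of 12 epithelial markers tested, 11 were lower in MIII than in MII and 0 higher, beside 24.3% and 22.9% of all genes. Their median was -2.70. Their summed signal was 134418 to 139868 in MII, 66823 to 67862 in MIII and 133675.5 to 144020 in MIV. The sum hides changes of single markers. In MIV against MII, 3 of the 12 were higher and 4 lower, with a median of 0, beside 20% and 22.2% of all genes. Among the lower, KRT14 averaged 2155 in MII and 137 in MIV, and CDH1 averaged 12055 and 7288. Of 10 fibroblast and mesenchymal markers tested, 9 were higher in MIII than in MII and 0 lower, beside 22.9% and 24.3% of all genes. Their median was 4.75. COL1A1 was not called (-0.18), and COL1A2 and PDGFRB lay under the pooled median on every array. COL3A1, LUM and POSTN lay under it on every MII and MIV array, and THY1 on all of these but MII replicate 1. COL3A1, LUM, POSTN and THY1 thus needed the MIII arrays to pass the filter. Their higher calls were close to fixed by it, and the sizes depend on the offset. Signals were also summed over the 12 markers of this list with a probe set. The sums were 1960 to 2067 in MII, 74674 to 80933 in MIII and 14297 to 16210 in MIV. VIM alone averaged 1291 in MII and 13557 in MIV. In MIV against MII, 3 of the 10 were higher and 2 lower, with a median of 0.08. Of all genes tested, 20% were higher and 22.2% lower. The claudins CLDN4 and CLDN7 lay under the pooled median on all 3 MIII arrays, while KRT5, KRT8, KRT18 and CDH1 stayed above it in every line. Of the 7 leukocyte and endothelial markers, 6 had a probe set and 3 were tested. Sums over the 6 were 1670 to 1927 in MII, 874 to 1077 in MIII and 709 to 750 in MIV. CD14 averaged 1490, 594 and 323 in MII, MIII and MIV, while PECAM1 averaged 174, 251 and 306. CD3E was called in no comparison, and PTPRC, CDH5 and VWF lay under the pooled median on every array. In these bulk samples fewer cells of a type and less RNA per cell cannot be told apart, and the part of these markers in the 12p shift was not tested.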

How the data were processed

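Each array was deposited as linear intensity values, with MAS5 named in the submitters' processing notes. Settings and version are not given in the sources used here. On inspection, every array had a mean of 500.07 over its middle 96% of values, and no further scaling was applied. Of 54675 probe sets, 41091 had 1 gene, 1801 had several and 11721 had none. Genes were placed on GRCh38.p14 through a RefSeq table.

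Signals were analysed as log2(signal + 18.3), the offset being the pooled 25th percentile, for 12594 genes with at least 3 arrays above the pooled median of 69.3. All 9 arrays entered a group-means model (limma 3.58.1 under R 4.3.3), whose variance prior followed intensity and which left 6 residual degrees of freedom. Benjamini-Hochberg adjustment ran over every gene tested. Genes were called at an adjusted p under 0.05. Standard errors (SE) come from this fit, and SDs are over the 3 arrays of a line. Tested on simulated data, 200 genes changed by 0.5 in MIII against MII among 12594 were recovered in 47% of cases, and by 1 in 81.5%. In the measured data a far larger share was called in this comparison, with 22.9% of genes tested higher and 24.3% lower. The adjusted p depends on that share, so the simulated percentages do not give the recovery in these data.

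The members and lists were chosen with earlier results of these data known. Values per array are given for the brightest member of each role group and for the one with the largest absolute change of MIII minus MII. Outside the members, genes of 1 list and the 5 largest rises and falls of 12p are named. Alternatives tried were other offsets, normalizations, filters and probe set rules, a prior without trend, array weights, a replicate block, the arrays of the lines compared alone, and leaving out each array. The other genes of the lists are not analysed here. For 1 member no values are reported here.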

Additional observations from a re-analysis of the deposited data

How the results depend on the processing

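The counts of members called stayed within 1.5 times the reported ones under every alternative tried. Leaving out each array in turn gave 47 to 50 members called in MIII against MII, 44 to 46 in MIV against MIII and 24 to 30 in MIV against MII. The medians of the members then lay between 0.52 and 0.59, between -0.55 and -0.51, and between -0.04 and 0. Those of the other 12p genes lay between 0.28 and 0.34, between -0.47 and -0.36, and between -0.11 and -0.06. With the replicate block, 50, 45 and 29 members were called, with medians of 0.55, -0.55 and -0.02; deviations of same-numbered arrays correlated between -0.04 and 0.04, so the numbers do not pair the arrays.

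The member median for MIII minus MII was 0.58 after scaling arrays to the same median of the genes tested and 0.50 with suffix-free probe sets. For MIV minus MIII it was -0.51 with the pooled median as offset and -0.47 with suffix-free probe sets. For MIV minus MII it was 0.03 after median scaling. For the other 12p genes, MIII minus MII was 0.36 after median scaling, 0.16 with no filter and 0.37 with suffix-free probe sets. Their MIV minus MIII was -0.45 with an offset of 1, -0.30 with the pooled median as offset, -0.35 after quantile normalization, -0.21 with no filter, -0.32 with a filter at the pooled 75th percentile, and it was -0.49 with suffix-free probe sets. Their MIV minus MII was -0.11, -0.06, -0.04 and -0.04 under an offset of 1, the pooled median as offset, quantile normalization and median scaling, -0.03 with the stricter filter, -0.06 with the mean of all probe sets and -0.13 with suffix-free ones. With no filter the medians of MIII minus MII were 0.24 on 12p and 0.32 on 12q. The cause of these moves was not tested.

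Among values of single genes called in at least 1 of the settings compared, 6 turned sign. With the mean of all probe sets, ETNK1 was 0.32 for MIII minus MII, and BICD1 was -0.75 for MIV minus MIII and -0.01 for MIV minus MII. With suffix-free probe sets, H2AJ was 0.57 for MIII minus MII, and TM7SF3 was -0.37 and A2ML1 -0.75 for MIV minus MIII. Among values of single members, 57 fell short of the threshold, 18 newly passed it and 3448 kept their side of it. Of the last, 31 turned sign without a call in either setting. The design has 1 line per stage and 3 arrays per line, dim genes near the pooled median carry the largest errors, and only transcripts were measured.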

Other observations

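The median MIII minus MII of the members was positive at each level of signal, which their choice by this shift made likely. Divided into 3 equal sets by mean signal over the 9 arrays, the dimmest 19 members, from 84.9 to 1024, had a median MIII minus MII of 0.75. The middle 19, from 1031 to 2397, had 0.55, and the brightest 19, from 2594 to 21510.0, had 0.48. The dimmest set includes CCND2, which passed the filter only through MIII. These medians are a description, all genes were not divided in this way, and the order of the medians was not tested.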
